A study of Mus musculus with 30 samples.

Results

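A set of 10 imprinted genes known for their part in the quiescence of stem cells was followed through haematopoietic stem cells, a reprogrammed culture and mature blood: H19, Igf2, Dlk1, Meg3, Cdkn1c, Ndn, Plagl1, Grb10, Peg3 and Mest. They were taken by symbol from the 23060 genes in the deposited expression table and all 10 were found. The study asked how closely blood stem cells made from adult mouse endothelium resemble native ones, and read poly-A selected RNA of cells sorted from mice and of cells from a culture.

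Control libraries came from cells annotated as wild type and freshly isolated. Libraries named rEC came from freshly isolated cells annotated as derived, that is, descended from reprogrammed endothelial cells. Each origin gave 3 libraries of bone marrow LKS-SLAM cells, a sorted fraction rich in haematopoietic stem cells that repopulate over the long term. From blood, each origin gave 2 libraries of Gr1+ Cd11b+ myeloid cells, 3 of B220+ B cells, 2 of CD4 T cells and 3 of CD8 T cells. The FGRS culture gave 3 libraries of adherent KLS-sorted cells at day 28, annotated as derived and grown with HUVEC, which are human umbilical vein endothelial cells. FGRS is named after Fosb, Gfi1, Runx1 and Spi1, the factors that drive the conversion. In the titles, LKS-SLAM rEC replicate 2 is 47G1 Primary, a name that another title calls clonal, and replicate 3 is Secondary. Among rEC blood libraries, B cell replicate 2 is also 47G1 Primary, and B cell replicate 3, CD4 replicate 2 and CD8 replicates 2 and 3 are Secondary. The labels do not say which of these share an animal, and the tests treat all libraries as independent. Cells of every group were sorted by flow cytometry. The labels used here give no strain, age or animal for a library, so p-values measure the spread between libraries, which may be technical.

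An imprinted gene is transcribed mainly from the chromosome inherited from 1 parent, under the control of DNA methylation laid down in the germ line. Many imprinted genes act on growth, and in bone marrow several are known to be highest in the most dormant stem cells and to decline as cells divide and mature. Cdkn1c encodes p57, an inhibitor of cyclin-dependent kinases. Ndn encodes necdin, a growth suppressor that binds E2F and p53. Grb10 encodes an adaptor that damps insulin and IGF receptor signalling. Dlk1, a membrane ligand related to Delta, and Meg3, a long non-coding RNA, lie in the same domain and are expressed from opposite parental chromosomes. So are Igf2, a growth factor, and H19, a non-coding RNA beside it. Plagl1 and Peg3 encode zinc finger proteins, and Mest an enzyme of the hydrolase family.

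In the GENCODE annotation of the mm10 build, Cdkn1c lies on chromosome 7 at 143458339 to 143461050 (minus strand), Ndn on chromosome 7 at 62346569 to 62350262 (plus), and Grb10 on chromosome 11 at 11930508 to 12038683 (minus). Dlk1 is on chromosome 12 at 109452823 to 109463336 and Meg3 begins 77.7 kb after its end, at 109541001 to 109571726, both on the plus strand. H19 is on chromosome 7 at 142575529 to 142578143 and Igf2 at 142650766 to 142666816, both on the minus strand and 72.6 kb apart. Peg3 is on chromosome 7 at 6703892 to 6730431 (minus), Plagl1 on chromosome 10 at 13060504 to 13131694 (plus) and Mest on chromosome 6 at 30723547 to 30748465 (plus). All values cover whole genes. The libraries did not mark strand, so reads of Cdkn1c, Ndn, Igf2, Meg3 and Mest cannot be told apart from those of annotated genes that overlap them on the opposite strand (Gm44732, Gm32061, Igf2os, Gm26906 and Copg2).

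RefSeq start sites were available for 8 of the 10 genes, in 15 promoter windows of 250 bases before a start (GRCm38.p6 assembly, all but Cdkn1c and H19). For the 3 genes whose levels separate the groups in different ways, 1 window per gene is shown. In these windows every CG dinucleotide, the site of DNA methylation, is in capitals. They are chr7:62348027-62348276 for Ndn (plus strand), chr12:109540746-109540995 for Meg3 (plus strand) and chr11:12037421-12037670 for Grb10 (minus strand).
Ndn: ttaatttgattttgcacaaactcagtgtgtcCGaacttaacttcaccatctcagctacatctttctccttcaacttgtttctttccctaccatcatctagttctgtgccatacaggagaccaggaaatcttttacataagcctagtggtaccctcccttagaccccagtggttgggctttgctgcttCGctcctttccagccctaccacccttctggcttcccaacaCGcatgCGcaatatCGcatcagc
Meg3: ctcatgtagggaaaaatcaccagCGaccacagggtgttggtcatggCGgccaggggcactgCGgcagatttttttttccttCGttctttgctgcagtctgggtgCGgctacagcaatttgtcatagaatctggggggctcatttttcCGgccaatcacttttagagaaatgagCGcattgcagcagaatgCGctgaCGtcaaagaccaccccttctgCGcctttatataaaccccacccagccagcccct
Grb10: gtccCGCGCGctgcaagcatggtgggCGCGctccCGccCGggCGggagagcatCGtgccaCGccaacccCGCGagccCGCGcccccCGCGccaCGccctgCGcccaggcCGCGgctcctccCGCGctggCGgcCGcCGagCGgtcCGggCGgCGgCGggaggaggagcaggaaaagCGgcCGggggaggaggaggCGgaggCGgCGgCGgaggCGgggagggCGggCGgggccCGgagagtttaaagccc
The windows shown differ widely in CG content. The Ndn window holds 5 CG dinucleotides and the Meg3 window 10, against a median of 6 over 32851 mouse promoter windows of the same length. The Grb10 window holds 40, more than 98.7% of windows. Grb10 and Meg3 each have another window that is not shown. That of Grb10 holds 8 CG dinucleotides, more than 57.0% of windows, and that of Meg3 holds 0. A palindromic CRE motif, TGACGTCA (its own reverse complement, so both strands are covered), stands 57 bases before the Meg3 start. The same letters were found in 1.55% of all windows, and in 2 of the 15 windows of these genes (Meg3 and Peg3). The PLAGL1 motif GGGGCCCC, also a palindrome, was found in 0.889% of all windows and in 1 of the 15 (Peg3). These matches describe letters only, since no binding or methylation was measured.

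The unit is FPKM, in which fragments are divided by transcript length and by the number mapped in the library. FPKM carry no counts, so absolute depth is unknown, and no counting interval can be given. Relative depth, read from the smallest step between low values, ranged from 0.586 to 1.13 of a reference library, and the lowest was control LKS-SLAM replicate 3. Summed FPKM ranged from 510115 to 727885. A level in bulk RNA mixes all cells of a library, and fewer cells with a gene cannot be told apart from less RNA in each cell.

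Markers set some stem cell libraries apart. In rEC LKS-SLAM replicate 2, the 47G1 library, the LKS-SLAM markers Ly6a and Slamf1 were at 6.99 and 2.46 FPKM, while the remaining 5 LKS-SLAM libraries held 65.0 to 184 and 9.34 to 47.7. All 34 genes of a cell cycle list were higher there than in the other 5. Control LKS-SLAM replicate 3 and rEC LKS-SLAM replicate 1 carry the label of long-term haematopoietic stem cells, and the other 4 that of haematopoietic stem cells. Control replicate 3 differed from control replicates 1 and 2 in markers of other cells. The summed level of 8 eosinophil and basophil genes was 43.2 FPKM in replicate 3 and 3153 and 5096 in replicates 1 and 2. The summed level of 12 marrow stroma genes was 46.2 against 234 and 346.5. Neutrophil genes were high in all 3 controls, at 3183, 2673 and 1944 FPKM summed over 10 genes. The rEC libraries were at 438.9, 145.2 and 6.92 FPKM. Of these 10 genes, 8 passed as lower in rEC than in control LKS-SLAM cells, where 1.32% of all genes tested passed. The FGRS libraries kept Ly6a (72.0 to 104 FPKM) but held Kit at 11.6 to 32.9 and Slamf1 at 0.114 to 0.48 FPKM, so that only part of the marker set of the LKS-SLAM label was present.

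Meg3, Cdkn1c, Ndn and Grb10 were the 4 genes with substantial RNA in LKS-SLAM cells. Their control means ranked above 74.6%, 66.9%, 66.2% and 54.8% of the genes tested. Igf2, Dlk1, H19, Mest, Peg3 and Plagl1 had means of 1.44 FPKM or less. Igf2, Dlk1, Meg3, Cdkn1c, Ndn and Grb10 reached 1 FPKM in at least 2 libraries, and these 6 were tested with limma on log2(FPKM + 1), calling an adjusted p under 0.05. The other 4 are given by their values.

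**Figure D1:**
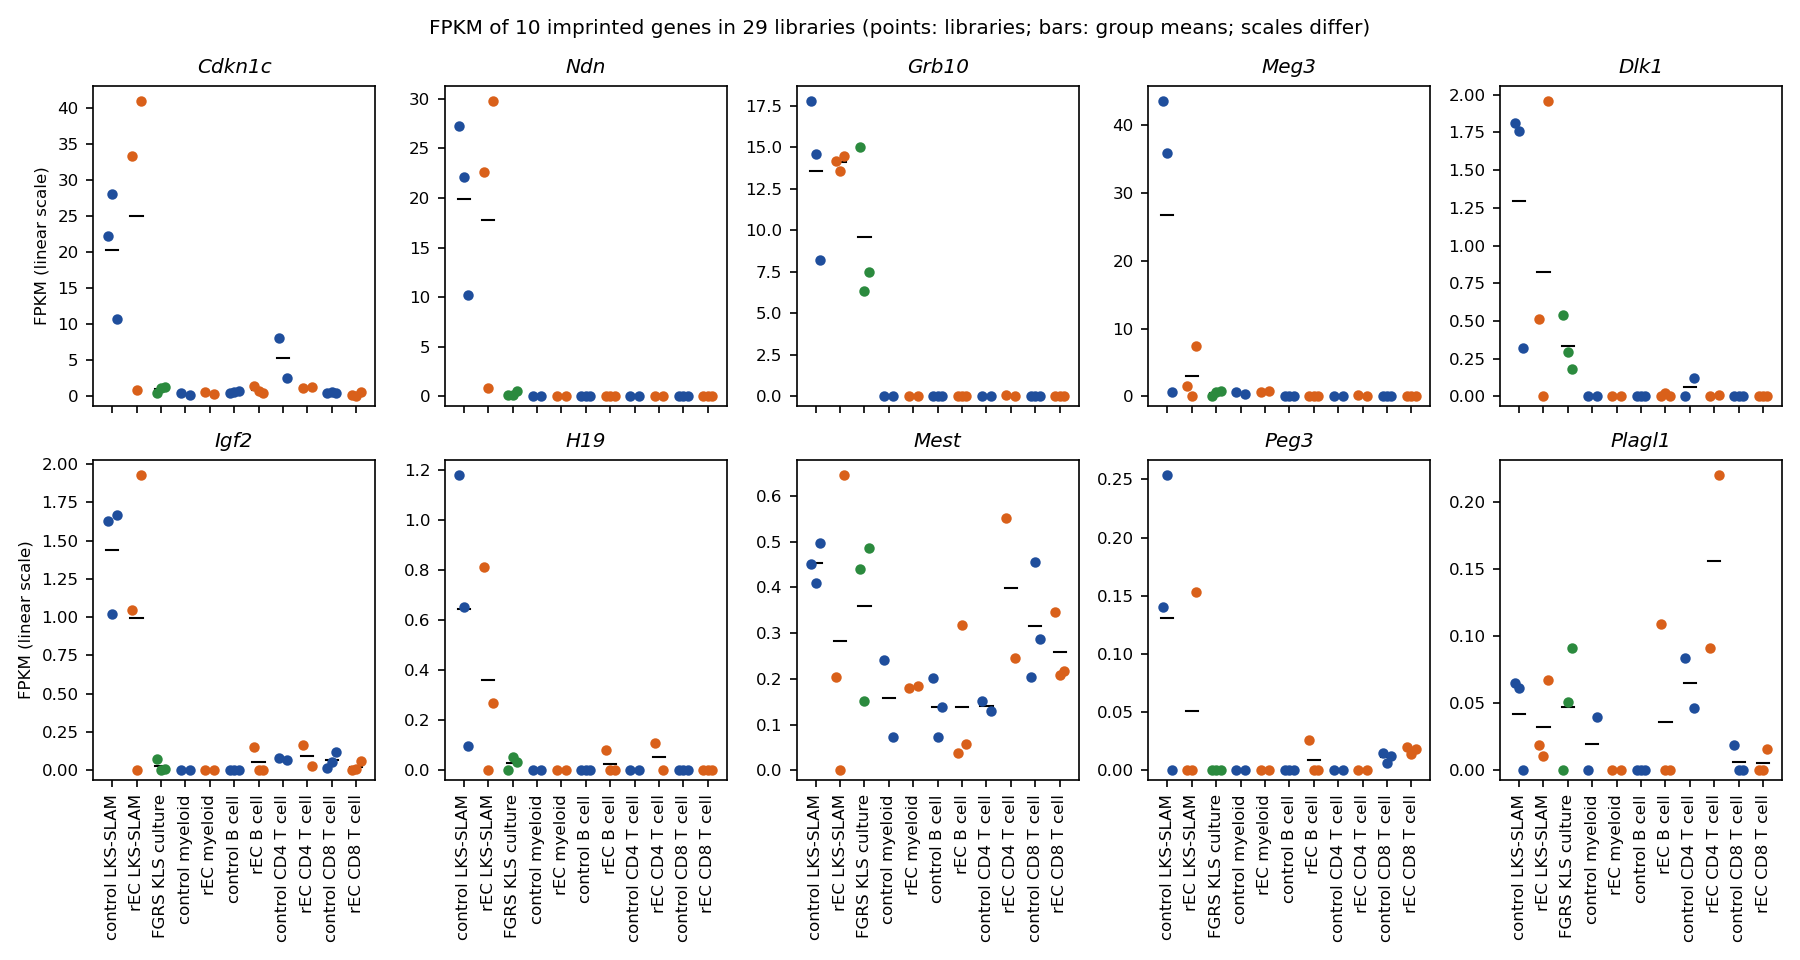
Expression of each gene (y axis, FPKM, with a scale of its own) in the 11 groups (x axis). Points are libraries and bars are group means, and blood libraries stay under 1 FPKM for all genes but Cdkn1c, which reaches 8.12 FPKM in control CD4 T cells. Plagl1 is highest in an rEC CD4 library, at 0.22 FPKM.

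Of the genes that restrain the cell cycle, Cdkn1c was high in native stem cells and at about 1 FPKM in the culture. Control LKS-SLAM libraries held Cdkn1c at 22.2, 28.1 and 10.8 FPKM. The rEC LKS-SLAM libraries were at 33.4, 0.841 and 41.0 FPKM, and the FGRS libraries at 0.407, 1.16 and 1.36 FPKM. Of the rEC libraries, replicates 1 and 3 lie above every control library, while replicate 2 lies within the range of the culture. The means were 20.3 ± 8.78 in control, 25.1 ± 21.3 in rEC and 0.978 ± 0.504 FPKM in FGRS libraries (SD, n = 3 each). Cdkn1c was lower in the FGRS culture than in control LKS-SLAM cells by a log2 difference of -3.37 ± 0.70 (SE), with an adjusted p of 0.0005423 by limma. Against rEC LKS-SLAM cells the log2 difference was -2.84, with an adjusted p of 0.002494 by limma, and it was -4.30 without rEC replicate 2. The difference between origins did not pass, at -0.53 ± 0.70 on the log2 scale (limma, adjusted p = 0.8765). Without rEC replicate 2 it turned to 0.93 (limma, adjusted p = 0.1098).

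Necdin RNA was also high in most stem cell libraries and low in the culture. Control LKS-SLAM libraries held Ndn at 27.3, 22.1 and 10.2 FPKM, rEC libraries at 22.6, 0.797 and 29.8 FPKM, and FGRS libraries at 0.159, 0.101 and 0.512 FPKM. Every FGRS library was below every LKS-SLAM library of either origin, though rEC replicate 2 came near the highest of them. Ndn had the largest fall of the 6 genes tested in the culture, at a log2 difference of -3.96 ± 0.60 against control (limma, adjusted p = 2.372e-05) and -3.13 against rEC (limma, adjusted p = 0.0002823). Between origins the log2 difference was -0.83 ± 0.60 (limma, adjusted p = 0.7579), and 0.47 without rEC replicate 2 (limma, adjusted p = 0.2589). Cdkn1c and Ndn kept a ratio near 1 in LKS-SLAM libraries, from 0.814 to 1.48, also in rEC replicate 2 where both were low (1.05). In the culture the ratio was 2.55 to 11.5.

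The adaptor Grb10 was the steadiest of the 4 abundant genes. Control LKS-SLAM libraries were at 17.8, 14.6 and 8.23 FPKM, rEC libraries at 14.2, 13.6 and 14.5 FPKM, and FGRS libraries at 15.0, 6.36 and 7.49 FPKM. The rEC libraries lie within the range of the controls, and replicate 2, which was lowest in Cdkn1c and Ndn, was at the level of the other rEC libraries. The origin difference was 0.12 on the log2 scale, with a 95% interval from -0.35 to 0.59 (limma, adjusted p = 0.9188). The spread behind that interval is shared by all 11 groups, among them blood groups with Grb10 at or near 0. Grb10 did not pass against control in the culture, at a log2 difference of -0.48 ± 0.23 (limma, adjusted p = 0.08631), and it passed against rEC, at -0.59 (limma, adjusted p = 0.03762). With only the FGRS and rEC libraries in the fit, it did not pass against rEC (limma, adjusted p = 0.3072). The FGRS libraries did not move together. Replicate 1 was at the LKS-SLAM level, and it also had the highest Kit (32.9 FPKM, against 12.3 and 11.6) and the lowest sum of 8 macrophage genes (193.8 FPKM, against 1426 and 903.2). Without FGRS replicate 1 the log2 difference from control had an adjusted p of 0.001977, and without control replicate 3 one of 0.005462 (limma). The call against rEC was lost without FGRS replicate 2 or 3 or rEC replicate 1 or 3, and the log2 difference was -0.93 without FGRS replicate 1 and -0.37 without FGRS replicate 2. The part of the macrophage genes in this was not tested.

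Meg3 separated the libraries in another way. Control LKS-SLAM replicates 1 and 2 held 43.6 and 35.9 FPKM, the highest values of any of the 10 genes in control cells, and replicate 3 held 0.715 FPKM. The rEC libraries were at 1.53, 0 and 7.42 FPKM, and the FGRS libraries at 0.0952, 0.596 and 0.83 FPKM. Groups overlap because control replicate 3 lies below 2 of the 3 rEC libraries and below FGRS replicate 3. Meg3 was the gene with the largest origin difference of the 6, at -2.35 ± 0.77 on the log2 scale, and it missed the threshold after adjustment (limma, adjusted p = 0.1885). The call depends on single libraries. Without control replicate 3 the log2 difference was -3.87 (limma, adjusted p = 1.379e-05), and without rEC replicate 3 it was -3.15 (limma, adjusted p = 0.03358). Within the long-term label, the 1 rEC library was above the 1 control library by 0.56 on the log2 scale. Within the other label, the 2 rEC libraries were below the 2 control libraries by a log2 difference of -3.81. With the label as a term in the fit, a setting chosen after seeing the data, the adjusted p was 0.04776 (limma). The difference of -2.35 could not change, because both origins have the same numbers of libraries under each label. That fit assumes the same origin difference under both labels, whereas the differences within labels had opposite signs.

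Stroma and eosinophil genes were high in the same control libraries as Meg3. Among rEC libraries the stroma sum was lowest in replicate 2, where Meg3 was at 0, while the eosinophil and basophil sum was highest there. Both sums were higher in rEC replicate 1 than in replicate 3, and Meg3 was lower (1.53 and 7.42 FPKM). Summed over 12 marrow stroma genes, control libraries were at 234, 346.5 and 46.2 FPKM, rEC libraries at 54.2, 11.01 and 38.5 FPKM, and FGRS libraries at 5.36 to 7.01 FPKM. Of these 12 genes, 9, 11 and 5 reached 1 FPKM in the controls and 3, 4 and 4 in rEC libraries. Among them the chemokine gene Cxcl12 was at 132, 58.9 and 6.08 FPKM in the controls, and the collagen gene Col1a1 at 6.65, 97.4 and 0 FPKM. Only Pdgfrb of the list was highest in control replicate 3, at 5.22, 6.84 and 12.1 FPKM in the controls. Bgn was at 48.9, 43.6 and 22.5 FPKM in the controls, and at 38.6 and 29.2 FPKM in rEC replicates 1 and 3. Summed over 8 eosinophil and basophil genes, control libraries were at 3153, 5096 and 43.2 FPKM, rEC libraries at 9.89, 393.5 and 2.01 FPKM, and FGRS libraries at 68.2, 162.5 and 89.0 FPKM. All 8 reached 1 FPKM in control replicates 1 and 2, 5 in control replicate 3, and 3, 7 and 0 in rEC libraries. The part of such cells in the Meg3 difference was not tested.

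Other RNAs of the Meg3 domain followed Meg3 in the controls. Rian, a non-coding RNA gene 32.2 kb beyond Meg3, was at 6.06, 6.5 and 0.242 FPKM in control, 0.243, 0 and 1.09 FPKM in rEC and 0.661, 0.293 and 0.241 FPKM in FGRS libraries. Dlk1, transcribed from the other parental chromosome, was at 1.81, 1.76 and 0.318 FPKM in control, 0.515, 0 and 1.96 FPKM in rEC and 0.539, 0.292 and 0.181 FPKM in FGRS libraries. All 3 genes were thus low in control replicate 3 and at 0 in rEC replicate 2. The FPKM ratio of Meg3 to Dlk1 reached 24.1 and 20.5 in the first and the second control library but 2.25 in the third. For rEC replicate 1 it came to 2.98 and for replicate 3 to 3.79. Thus rEC replicate 3 held Dlk1 near the level of control replicates 1 and 2, with less Meg3 than those. Its Meg3 was above that of control replicate 3 (7.42 against 0.715 FPKM). In the FGRS culture Meg3 was lower than in control cells by a log2 difference of -3.26 (limma, adjusted p = 0.001684), and Dlk1 by -0.71 (limma, adjusted p = 0.03717). Against rEC cells neither passed, with log2 differences of -0.91 for Meg3 (95% interval -2.52 to 0.69) and -0.31 for Dlk1 (-0.88 to 0.26). The Dlk1 call in the culture was lost without control replicate 1 or 2 or FGRS replicate 2 or 3, and the log2 difference was -1.07 without control replicate 3.

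Igf2 was low in stem cells and close to 0 in the culture. Control LKS-SLAM libraries were at 1.63, 1.02 and 1.67 FPKM, rEC libraries at 1.05, 0 and 1.93 FPKM, and FGRS libraries at 0.0771, 0 and 0.0101 FPKM. All FGRS libraries lie below all control libraries, and the rEC libraries fall on both sides. Igf2 fell in the culture by 1.23 ± 0.23 on the log2(FPKM + 1) scale against control (limma, adjusted p = 0.0001996) and by 0.82 against rEC (limma, adjusted p = 0.006538). Without rEC replicate 2 the latter was a log2 difference of -1.25, and without rEC replicate 3 it did not pass, at -0.48 (limma, adjusted p = 0.06864). This scale understates changes of genes near 1 FPKM. The origin difference was -0.41 (95% interval -0.89 to 0.07, limma, adjusted p = 0.6384), and 0.02 without rEC replicate 2. Without rEC replicate 3 it passed, at -0.76 (limma, adjusted p = 0.04101).

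H19 was at 1.18, 0.653 and 0.0976 FPKM in control, 0.81, 0 and 0.267 FPKM in rEC and 0, 0.0527 and 0.0339 FPKM in FGRS libraries. As for Meg3, the lowest control library was replicate 3, while Igf2 from the same domain was not low there. Only 1 library reached 1 FPKM, so H19 entered the test only when no filter was set, and then fell in the culture against control by 0.62 (log2, adjusted p = 0.008042 by limma).

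The zinc finger genes and Mest stayed under 1 FPKM everywhere. Mest was at 0.409 to 0.497 FPKM in control, 0 to 0.646 in rEC and 0.151 to 0.485 in FGRS libraries, with wide overlap. Peg3 reached 0.254 FPKM in control LKS-SLAM replicate 2 and was listed at 0 in all 3 FGRS libraries, in 2 rEC libraries and in control replicate 3. Plagl1 did not exceed 0.0908 FPKM in these 9 libraries. Without the filter, Peg3 passed against control in the culture at a log2 difference of -0.17 (limma, adjusted p = 0.01637). In that fit 7437 of 19302 genes passed, and the spread is shared by 11 groups, most with Peg3 at or near 0. Differences between these 9 libraries' groups were not detectable for Plagl1 and Mest at such levels.

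**Figure D2:**
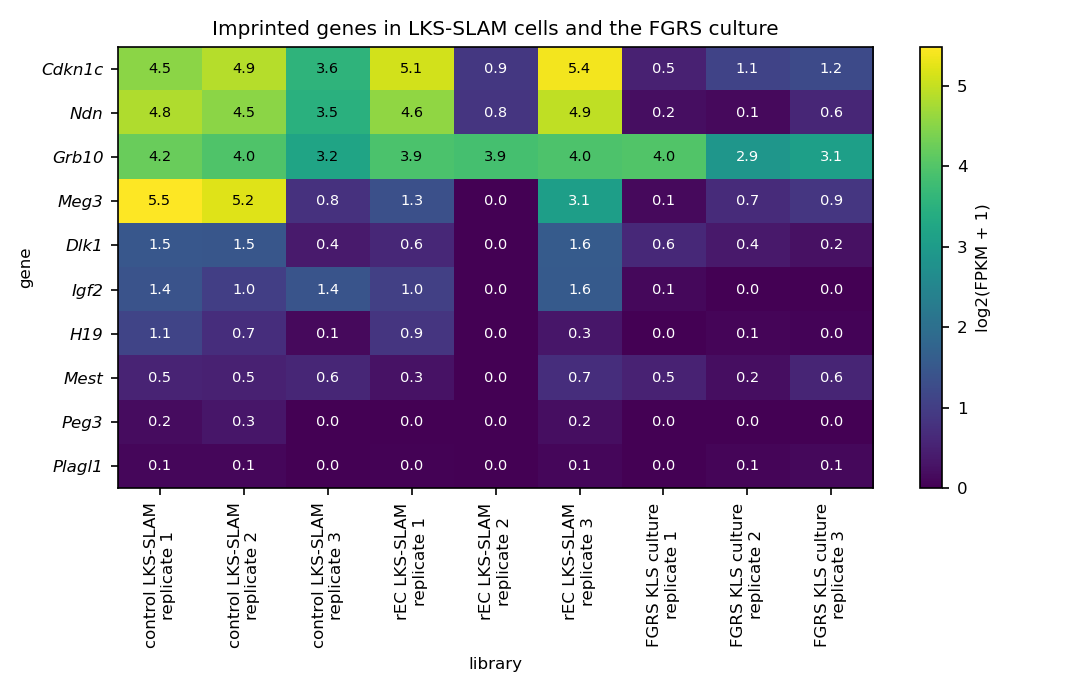
Levels of the 10 genes (rows) in the 9 LKS-SLAM and FGRS libraries (columns), as log2(FPKM + 1), with each value printed in its cell. The column of rEC replicate 2 is bright for Grb10 alone, and Meg3 is bright in control replicates 1 and 2.

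Set side by side, none of the 6 genes tested passed between rEC and control LKS-SLAM cells, with 1 (Meg3) at an unadjusted p under 0.05 by limma. Of all genes tested, 1.32% passed in that comparison, 10 as higher and 176 as lower (83 and 123 after quantile normalisation). The libraries of the 2 origins overlapped for all 10 genes, where 2.07% of genes tested had every rEC library above and 4.37% had every rEC library below the controls. Leaving out rEC replicate 2 also left 0 of the 6 passed by limma, with 1 at an unadjusted p under 0.05, while the count over all genes rose from 186 to 1258. Without rEC replicate 3, 2 of the 6 passed (Meg3 and Igf2), where 394 of all genes tested passed. Without control replicate 3, 1 passed (Meg3), where 332 of all genes tested passed. Intervals for the origin difference were wide, for example from -1.98 to 0.93 for Cdkn1c and from -2.08 to 0.42 for Ndn on the log2 scale, so equal levels were not shown. Within the long-term label, with 1 library for each origin, the rEC minus control log2 difference was 1.55 for Cdkn1c and 1.07 for Ndn. Within the other label, with 2 for each origin and rEC replicate 2 among them, it was -1.56 and -1.78.

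In the FGRS culture against control cells, 5 of the 6 were lower (all but Grb10). The background was high, since 48.8% of all genes tested passed there, 31.7% as lower. Quantile normalisation of the libraries changed the split over all genes from 2411 higher and 4459 lower to 2911 and 2906, and left 4 of the 6 lower, without Dlk1. All FGRS libraries lay below all control libraries for 4 of the 10 genes (H19, Igf2, Cdkn1c and Ndn), where 36.2% of all genes tested did so. Igf2, Dlk1, Meg3 and Ndn reached 1 FPKM in LKS-SLAM libraries only and so entered the test through the cells in which they are high, and the count of 5 only describes these genes. Against rEC cells, 4 of the 6 were lower (Ndn, Cdkn1c, Igf2 and Grb10), where 45% of all genes passed and 27.8% were lower. Without rEC replicate 3, 2 of the 6 passed, where 4694 of all genes tested passed. For 1 of the 10, Ndn, all FGRS libraries lay below all rEC libraries, as for 20.3% of genes tested. With only the FGRS and rEC libraries in the fit, 0 of the 6 passed against rEC cells (limma, adjusted p = 0.1375 for Ndn). Of all genes tested, 820 passed in that fit. Both comparisons use the same FGRS libraries. The culture also held neutrophil genes at 1598 to 6976 FPKM summed over 10 genes, a range that overlaps the 1944 to 3183 of control cells. Of these 10 genes, 1 passed as higher and 2 as lower than in control, with a median log2 difference of -0.86. Macrophage genes were at 193.8 to 1426 FPKM. All 8 macrophage genes reached 1 FPKM in each FGRS library and 7, 7 and 5 in the controls, whose sums all lay below that of any FGRS library. Their part in these falls was not tested.

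**Figure D3:**
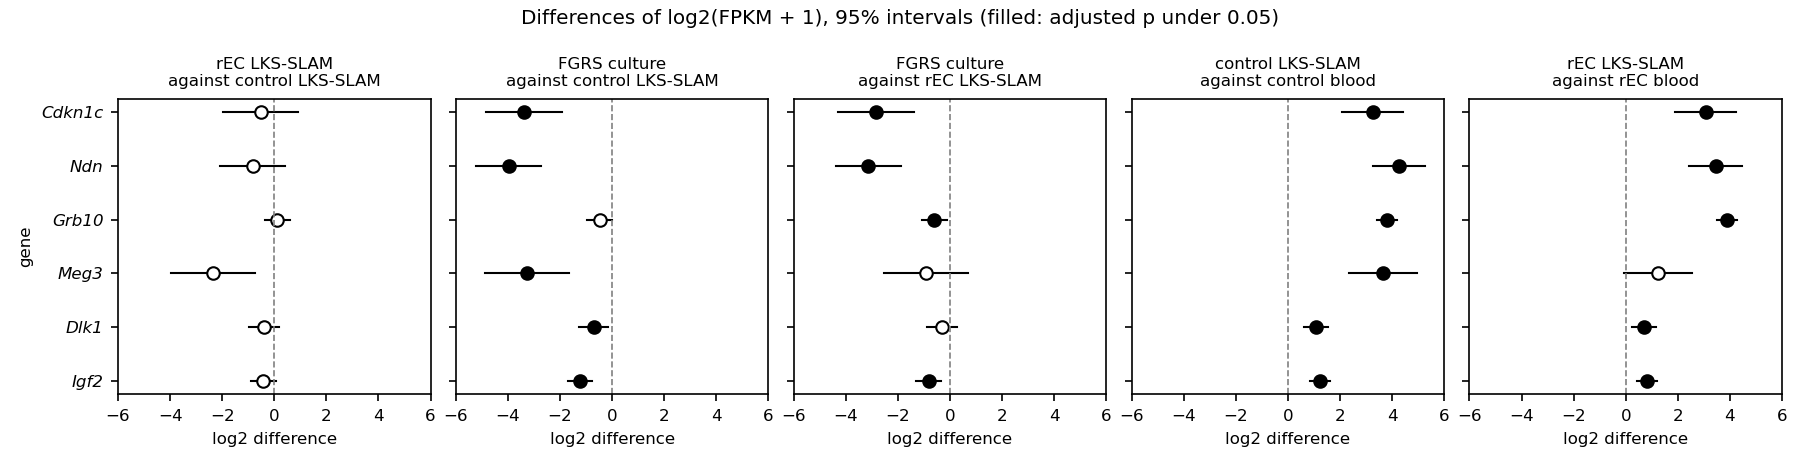
Log2 differences of log2(FPKM + 1) (x axis) for the 6 genes tested (y axis) in 5 comparisons, with lines for 95% intervals. Filled points passed at an adjusted p under 0.05, and in the leftmost panel none did.

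The 47G1 library (rEC replicate 2) was set apart in these genes too. Only 1 of the 10 genes, Grb10, reached 1 FPKM there, and 6 were listed at 0. It was the lowest of the 6 LKS-SLAM libraries for 5 of the 6 genes tested, and for 42.4% of all genes tested. It was the lowest for 30 of 32 genes of a quiescence list and the highest for all 34 cell cycle genes. The mean log2 level of the cell cycle list was 6.27 there, 3.33 and 3.12 in the other rEC libraries and 4.19 to 5.07 in the controls. Erythroid genes were also high, at a sum of 3487 FPKM against 349.2 to 1555 in the other 5 libraries. Macrophage genes summed to 310.8 FPKM there, with 7 of 8 at 1 FPKM or more, while the other 5 libraries lay between 23.4 FPKM and the 30 FPKM of control replicate 1. The part of these cells in its low Cdkn1c and Ndn was not tested.

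**Figure D4:**
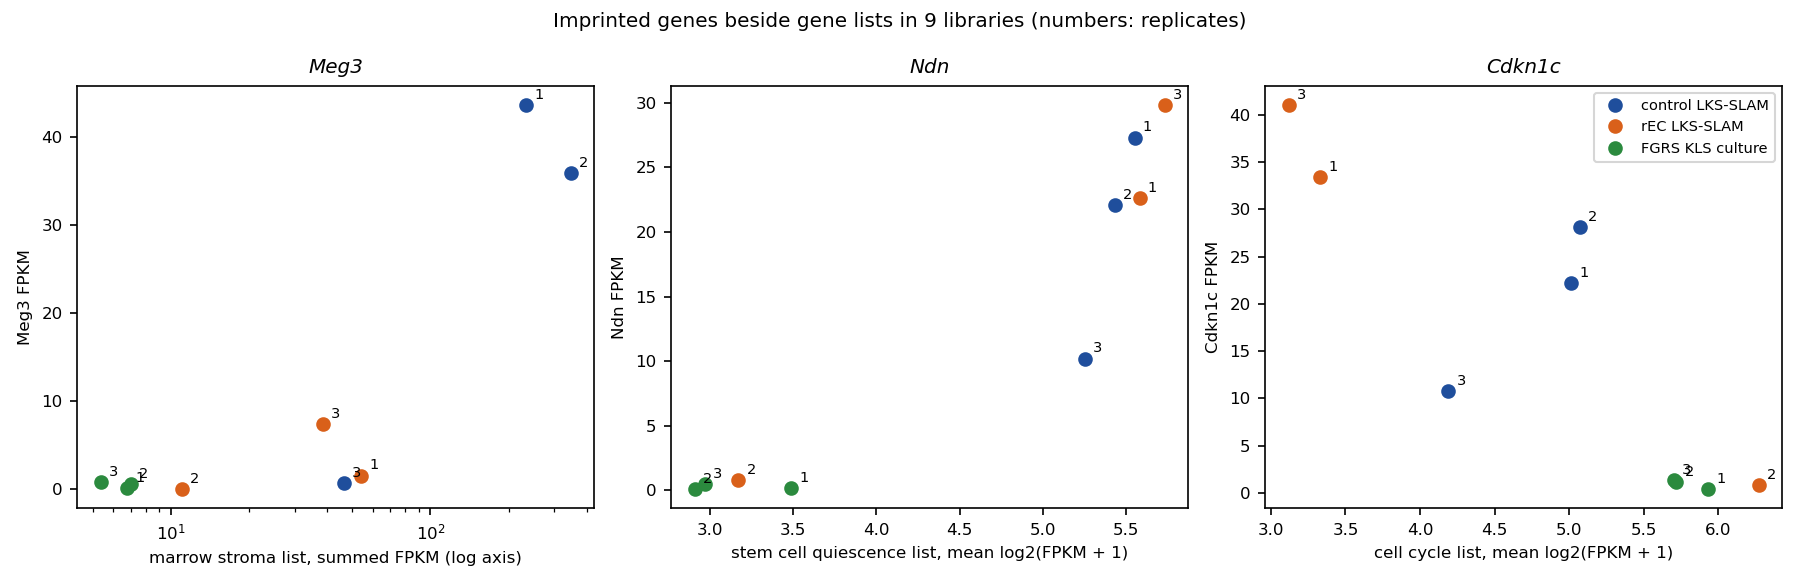
Meg3, Ndn and Cdkn1c (y axes, FPKM) in 9 libraries against the summed level of marrow stroma genes (log axis), the mean log2(FPKM + 1) of quiescence genes and that of cell cycle genes. Numbers are replicates and colours are groups; rEC replicate 2 sits with the FGRS libraries in the middle and right panels.

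Mature blood held little RNA of these genes. Apart from Cdkn1c, none of the 10 reached 1 FPKM in any of the 20 blood libraries. Ndn and H19 were listed at 0 in 18 of 20, Dlk1 in 17, Grb10 in 15, Peg3 in 13, Plagl1 in 12 and Igf2 in 10. Meg3 was detected in all 20, and its 4 myeloid libraries (0.348 to 0.73 FPKM) lay above all 16 lymphoid ones, the highest of which was at 0.133. Mest was also detected in all 20, up to 0.552 FPKM in an rEC CD4 library.

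Cdkn1c was the exception in blood. CD4 T cells held 2.48 and 8.12 FPKM in control and 1.21 and 1.25 FPKM in rEC libraries, and no other blood library exceeded 0.809 FPKM except rEC B cell replicate 1, at 1.39. That library also held T cell genes, at a sum of 1788 FPKM over 8 genes. Group means descended from control CD4 cells (5.30 ± 3.99, n = 2) through rEC CD4 cells (1.23 ± 0.0253, n = 2) to rEC B cells (0.897 ± 0.451, n = 3), and the remaining 5 blood groups lay between 0.295 and 0.646 FPKM, with ranges that overlap their neighbours. The 2 CD4 groups did not overlap, but with 2 libraries each their difference was tested only within the F test over 4 cell types, where Cdkn1c did not pass (limma, adjusted p = 1).

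Against control blood, all 6 genes tested were higher in control LKS-SLAM cells. Of all genes, 62.5% passed, 42.6% as higher. Quantile normalisation changed that split from 6002 higher and 2799 lower to 4240 and 5088, and all 6 were still higher. These genes passed the filter mainly through their stem cell libraries, so the count only describes them. The log2 differences were 4.27 for Ndn, 3.80 for Grb10, 3.65 for Meg3, 3.26 for Cdkn1c, 1.23 for Igf2 and 1.10 for Dlk1. All control LKS-SLAM libraries lay above all 10 control blood libraries for 7 of the 10 genes (the 6 and H19), where 26.1% of genes tested did so.

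In the rEC origin, 5 of the 6 were higher in LKS-SLAM cells than in blood (64.7% of all genes passed, 42.4% as higher). Grb10 had a log2 difference of 3.91, Ndn 3.45, Cdkn1c 3.06, Igf2 0.80 and Dlk1 0.72. Without rEC replicate 2 those of Igf2 and Dlk1 were 1.23 and 1.08, and without rEC replicate 3 they were 0.46 and 0.29, where Dlk1 did not pass (limma, adjusted p = 0.1928). Quantile normalisation changed the split over all genes from 5977 higher and 3128 lower to 4413 and 4752, with 5 of the 6 still higher. Meg3 did not pass, at 1.24 (limma, adjusted p = 0.08682). All rEC LKS-SLAM libraries lay above all rEC blood libraries for Ndn and Grb10 only, 2 of the 10 genes, where 16.9% of all genes tested did so. Whether the step from stem cells to blood differed between origins was tested directly. None of the 6 passed by limma and 1 had an unadjusted p under 0.05, Meg3 at a log2 difference of -2.41 (adjusted p = 0.3894), while 0.568% of all genes passed. Without the 2 libraries that stand apart (rEC LKS-SLAM replicate 2 and rEC B cell replicate 1), Cdkn1c passed with a larger step in the rEC origin, at 1.31 (limma, adjusted p = 0.0417). Leaving out both was chosen after seeing the data, and 999 of all genes tested passed in that fit.

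Within blood, no origin difference passed in these genes. None of the 6 passed in the mean over 4 cell types, where 0.554% of all genes passed, and none had an unadjusted p under 0.05 by limma. The same 0 and 0 held for the F test, where 0.689% passed. The largest of the mean differences was -0.33 for Cdkn1c (95% interval -1.15 to 0.48 on the log2 scale), and the other 5 lay between -0.02 and 0.06.

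Other imprinted genes are given for comparison, from a list of 58 of which 56 were in the table and 42 were tested. Between origins in LKS-SLAM cells 6 of the 42 had an unadjusted p under 0.05 by limma. After adjustment 0 rose and 1 fell, where 1.32% of all genes tested passed. The gene that fell was Tssc4 (43.4 ± 8.15 in rEC and 88.3 ± 31.5 FPKM in control, log2 difference -0.96, limma, adjusted p = 0.02933). In the FGRS culture against control, 4 rose and 20 fell, with a median of -0.70 against -0.19 over all genes. Of all genes tested, 48.8% passed there and 31.7% fell. After quantile normalisation 5 rose and 18 fell, as did 2911 and 2906 of the 14083 genes tested. Those with the smallest p were Phlda2, a growth-limiting gene of the Cdkn1c domain (1.80 ± 0.807 against 8.89 ± 1.86 FPKM), Tspan32 (32.4 against 106.5 FPKM), Sgce, which encodes a sarcoglycan (1.44 against 13.4 FPKM), and Ampd3, an AMP deaminase (3.04 against 16.0 FPKM). Against rEC cells 4 rose and 15 fell, where 45% of all genes tested passed and 27.8% fell. After quantile normalisation 12 fell, as did 3070 of the 14083 genes tested. Without the 2 libraries that stand apart 24 fell, as did 5426 of all genes tested.

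Genes of the IGF pathway, in which Igf2 is a ligand and Grb10 a brake, were tested as 24 of 28. Between origins 0 rose and 2 fell, where 1.32% of all genes tested passed. The 2 that fell were the only 2 of the 24 with an unadjusted p under 0.05 by limma. They were Igfbp5 (0.436 ± 0.392 in rEC against 5.20 ± 4.08 FPKM in control, limma, adjusted p = 0.006144) and Igfbp7 (1.38 ± 0.659 against 10.9 ± 8.998 FPKM, limma, adjusted p = 0.02916), both encoding IGF binding proteins. For both, control replicate 3 lay below rEC replicate 1, at 0.807 against 0.873 FPKM for Igfbp5 and 1.69 against 2.14 FPKM for Igfbp7. The summed stroma genes were also lower in rEC libraries than in control replicates 1 and 2, and their part in the 2 falls was not tested. In the culture against control 3 rose and 12 fell, that is 15 of 24, where 48.8% of all genes tested passed and 31.7% fell. Akt1, a kinase downstream of the receptor, rose from 104.6 to 147 FPKM, and Pik3r1, a regulatory subunit of PI3 kinase, fell from 58.2 to 12.9 FPKM.

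Most other quiescence genes were lower in the culture, as Cdkn1c and Ndn were. Of 32 tested, 1 rose and 25 fell against control, with a median of -2.57 on the log2 scale (-0.19 over all genes). Of all genes tested, 48.8% passed in that comparison and 31.7% fell. Gata2, a stem cell transcription factor, was at 13.5 ± 8.53 against 228 ± 56.2 FPKM in control cells. Between origins 0 of the 32 passed by limma, and 4 had an unadjusted p under 0.05. Without the 2 libraries that stand apart, 6 rose and 1 fell, where 597 of the 14083 genes tested rose and 960 fell. Of 34 cell cycle genes, 12 rose and 0 fell in the culture against control, where 2411 of all genes tested rose. After quantile normalisation 7 rose (2911 of all genes), and without those 2 libraries 29 rose (3277 of all genes). Neither of those libraries is in this comparison, and the median log2 difference of the list stayed at 1.07 without them. Only the estimate of the spread, shared by all groups, changed. Bub1, a mitotic checkpoint kinase, was at 28.6 ± 2.27 in the culture against 7.69 ± 4.19 FPKM in control. Against rEC 27 rose, where 2419 of all genes tested rose. Between origins 0 of the 34 passed by limma and 0 had an unadjusted p under 0.05. Without the same 2 libraries all 34 fell in rEC cells, with a median log2 difference of -1.49, where 960 of all genes tested fell.

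The machinery that maintains imprints was tested as 19 of 21 genes. In the culture against control 2 rose and 8 fell, that is 10 of 19, where 48.8% of all genes tested passed and 31.7% fell. Between origins 0 passed by limma, with 1 at an unadjusted p under 0.05. Without the 2 libraries that stand apart, 3 fell between origins, where 960 of the 14083 genes tested fell. Zfp57, which protects methylated imprinting control regions, was at 0.482 ± 0.144 in the culture and 10.3 ± 2.96 FPKM in control cells (log2 difference -2.90, limma, adjusted p = 4.146e-05). Dnmt3l, the cofactor of germ line DNA methylation, was at 12.2 ± 3.94 FPKM in the culture, 0.0283 ± 0.049 in control and 0.197 ± 0.0385 in rEC cells (log2 difference 3.64 against control, limma, adjusted p = 7.604e-12).

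Genes most like each abundant gene were ranked by Pearson's r over the 11 group means of log2(FPKM + 1), among 10862 genes with a group mean of at least 5 FPKM. The groups share most of their pattern of stem against blood cells, so r describes these groups and carries no test. Nearest to Meg3 were Ear6 (r = 0.9862), Cxcl12 (0.9764) and Epx (0.974), of which Ear6 and Epx are eosinophil genes and Cxcl12 a stroma gene. Nearest to Ndn were Bgn (0.9999), Timp3 (0.9996) and Npr2 (0.9994). Nearest to Cdkn1c were Spry1 (0.9735), Rec8 (0.973) and Nxnl2 (0.9695), and nearest to Grb10 were Muc13 (0.9986), Fads3 (0.9979) and Adgrl4 (0.9972). Bgn encodes the matrix protein biglycan and stands in the marrow stroma list, and its levels were 48.9, 43.6 and 22.5 FPKM in control, 38.6, 4.48 and 29.2 in rEC and 0.106, 0.486 and 0.436 in FGRS libraries. The part of stroma cells in the Ndn level was not tested.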

How the data were processed

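RNA of 30 mouse libraries was sequenced as non-stranded, poly-A selected 51 bp paired ends, per the labels' protocols. The authors deposited FPKM per gene symbol in each library. The submitters' processing notes list TopHat2 2.1.0 and Cufflinks 2.2.1, the mm10 build, Trimmomatic 0.36, FastQC 0.11.5 and bcl2fastq 2.17, with no settings, and scaling between libraries is not given in the sources used here.

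Libraries were grouped by title into 11 groups of 29 libraries. The library titled B220+ Clonal 47G1 Primary is annotated as wild type, and was left out of comparisons. The 10 genes and all lists were chosen with earlier results of these data known, and all 10 genes are named throughout. From each pathway list, up to 4 genes with the smallest adjusted p in a comparison could be named. Not every gene that this rule names is reported here.

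Differences were tested with limma 3.58.1 (R 4.3.3, two-sided except the F test) on log2(FPKM + 1), with 1 mean per group, an intensity trend and 18 residual degrees of freedom. The spread of a gene is thus shared by all 11 groups. Among them are blood groups in which most of the genes followed here were at or near 0. Genes had to reach 1 FPKM in 2 libraries, which left 14083, and p-values were adjusted by Benjamini-Hochberg over all of these, with calls at 0.05. The fit was also tested on simulated data. Alternatives were other pseudocounts, filters, scaling, weights, a replicate block, fewer groups and leaving out each library. Chosen after seeing the data were leaving out rEC LKS-SLAM replicate 2 and rEC B cell replicate 1 together, and the cell type label as a term. Values and plots used Python 3.11.15 with pandas 2.3.3, numpy 2.4.6 and matplotlib 3.10.9. Promoters are RefSeq windows of GRCm38.p6, matched by symbol, cut to the bases before the start.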

Additional observations from a re-analysis of the deposited data

How the results depend on the processing

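Of 60 counts of the 6 tested genes passed, each under 1 setting other than leave-one-out, 52 stayed within 1.5 times the reported count. With a filter of 5 FPKM, 3 genes passed in the FGRS culture against control and 3 in rEC LKS-SLAM cells against rEC blood. This filter tests fewer genes. With only the groups compared in the fit, 3 passed in the culture against control and 0 against rEC, with 1 at an unadjusted p under 0.05 in the latter (limma). There the adjusted p of Ndn was 0.1375 and that of Cdkn1c 0.1986. With array quality weights, 2 passed between origins in LKS-SLAM cells and 3 in the stem to blood difference between origins, and the weights did not fully converge. With the cell type label as a term 1 passed between origins, and without both libraries that stand apart 1 passed in the stem to blood difference. Leaving out each library in turn gave 2 to 5 genes in the culture against rEC, 0 to 2 between origins in LKS-SLAM cells and 0 to 1 in the stem to blood difference. The cause of these moves was not tested.

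Quantile normalisation moved the median log2 difference over all genes from -0.19 to 0.024 in the culture against control, from -0.14 to -0.017 against rEC, and from 0.28 to -0.087 and 0.27 to -0.027 in stem cells against blood (control, rEC). Counts over all genes moved more. Between origins in LKS-SLAM cells 186 genes passed, against 329 with no filter, 6240 with array quality weights, 0 with only the groups compared (414 at an unadjusted p under 0.05), 336 with the label term, 1557 without both libraries, and 113 to 1258 when each library was left out. In the culture against rEC, 6335 became 11581 with weights and 820 with only the groups compared. The 80 of the stem to blood difference became 155, 46, 46, 5309 and 999 (no filter, 5 FPKM, quantile normalisation, weights, without both), and 42 to 817 by leave-one-out. In blood the 78 of the mean became 1096, 328 and 285 (weights, only the groups, without both), and 34 to 79 by leave-one-out. The 97 of the F test became 151, 1644, 311, 53 and 433 (no filter, weights, only the groups, replicate block, without both), and 24 to 141 by leave-one-out.

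Some single genes reversed. Between origins in LKS-SLAM cells, weights gave 0.41 for Cdkn1c and -0.081 for Grb10, and leaving out both libraries gave 0.93 for Cdkn1c, 0.47 for Ndn and 0.017 for Igf2. In the stem to blood difference, weights gave 0.79 for Cdkn1c and -0.091 for Grb10, and leaving out both gave 1.31 for Cdkn1c, 0.48 for Ndn and 0.025 for Igf2. Quantile normalisation gave 0.027 for Dlk1 in the culture against rEC. For Igf2 in blood, weights gave -0.000612 and leaving out both gave -0.00737. By leave-one-out, the origin difference in LKS-SLAM cells ranged from -1.33 to 0.93 for Cdkn1c, -1.58 to 0.47 for Ndn, -0.18 to 0.33 for Grb10 and -0.76 to 0.017 for Igf2. The stem to blood difference ranged from -0.99 to 1.26 for Cdkn1c, -1.57 to 0.48 for Ndn, -0.19 to 0.32 for Grb10 and -0.77 to 0.0072 for Igf2. Dlk1 ranged from -0.67 to 0.11 in the culture against rEC and from -0.037 to 0.0046 in blood, and Igf2 in blood from -0.013 to 0.033.

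Calls in the culture were lost for some genes. Dlk1 against control was lost with a pseudocount of 0.1, quantile normalisation and only the groups compared, and Grb10 against rEC with the same 3 settings and without rEC replicate 1 or 3 or FGRS replicate 2 or 3. Igf2 against rEC was lost without rEC replicate 3 (limma, adjusted p = 0.06864), and Meg3 against control with only the groups compared (limma, adjusted p = 0.0695). The replicate number was tried as a block for the culture and control cells. Same-numbered libraries had correlated deviations of -0.06, 0.07 and -0.09, so the numbers are not read as pairs. With the replicate block 6 of the 6 genes passed, as Grb10 then had an adjusted p of 0.01535 by limma. FPKM without counts limit what can be said of Plagl1, Peg3, H19 and Mest, which lie mostly below 1 FPKM.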

Other observations

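The library titled B220+ Clonal 47G1 Primary has no clear origin in its labels and was left out of all comparisons. It held Cdkn1c at 0.907 FPKM, Mest at 0.183, Meg3 at 0.0355, Plagl1 at 0.0176 and Dlk1 at 0.0107 FPKM. H19, Igf2, Ndn, Grb10 and Peg3 were listed at 0 there.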
